A study of Mus musculus with 35 samples.

Results

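Ptpn2 encodes a protein tyrosine phosphatase, also called TC-PTP, and lies on mouse chromosome 18. The regions described here are those listed by chromatin immunoprecipitation sequencing (ChIP-seq) in an 80 kb window around the gene (genome build mm9, chr18:67820000-67900000). Every deposited region up to 100 kb wide that overlapped the window in any of the 35 lists was taken. This gave 57 regions, of 233211 regions up to 100 kb in the whole series. The gene and its start position, chr18:67884000, were chosen because most p50, acetylated histone H4 (H4ac) and RNA polymerase II (Pol II) lists hold a region there. The presence of those regions is therefore a description and supports nothing by itself. The start position was given with the gene, as an approximate one, and was not checked against an mm9 gene model, which was not used here. Distances and sides in bases are therefore relative to chr18:67884000 and may differ from those to the true start. In the RefSeq annotation of GRCm38.p6 the neighbouring protein-coding genes are Psmg2 on the lower side and Seh1l on the higher side.

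All libraries came from primary macrophages grown from bone marrow of wild-type female C57BL/6 mice aged 8 to 12 weeks, and each library had 1 antibody target. Lipopolysaccharide (LPS), which macrophages sense as a sign of Gram-negative bacteria, was the stimulus. For p50, a subunit of NF-κB, there were 4 libraries at 60 min of LPS and 3 unstimulated ones. H4ac had 2 libraries each at 0, 60, 120 and 240 min of LPS. For Pol II there was 1 library without LPS, then 2 at 60 min, 1 at 120 min, 2 at 240 min and 1 at 360 min. For p65, another NF-κB subunit, there was 1 library without LPS, with 2 at 60 min and 2 at 120 min, and the transcription factor ATF3 had 3 at 240 min. Histone H3 trimethylated at lysine 27 (H3K27me3) was profiled once without LPS, once at 120, 240 and 480 min, and in 1 library labelled 480 min whose title gives 60 min of LPS and a 7 h delay. Apart from the H3K27me3 pair at 480 min, libraries carry a letter in their titles (A, B, C, D or X), used here as the replicate name. Nothing says that letters stand for separate animals or cultures.

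The lists held 255 to 28522 regions. They give no counts of reads, and the depth behind each of them is unknown. Absence from a list means only that no region was listed, and does not show that the site was unbound. Each list gives a score for a region, which is the authors' own and was used only to rank regions within their list. The rank is given as the share of the list scored at or above the region, so a low share means a place near the top. Lists differ in length, and shares from lists of different lengths cannot show a change between conditions or its absence. They are therefore given as descriptions of each list. Chromatin from a whole culture was measured, so a site occupied in more cells and a site occupied more strongly in each cell cannot be told apart. No difference between conditions was tested at this locus, because it was chosen from the same lists. The designs are small as well: the smallest two-sided p that an exact permutation test can give is 0.0571 for 4 against 3 libraries and 0.333 for 2 against 2. The macrophage identity of the cells was not checked against marker genes, since no mm9 annotation was used here.

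TC-PTP removes phosphate from tyrosines of JAK kinases and STAT transcription factors and so limits signalling by interferons and other cytokines, and loss of the enzyme in mice leads to severe inflammation. NF-κB p50 has a DNA-binding domain but no transactivation domain of its own. As a dimer with p65 it activates inflammatory genes, while p50 homodimers occur in the nucleus of resting cells and are known for holding some of those genes back. H4ac marks open, active chromatin, Pol II gathers at the starts of transcribed genes, and H3K27me3 is the mark of Polycomb repression. Ptpn2 is read towards lower coordinates, so the lower side of the start position is the side of the gene body.

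p50 was listed at the Ptpn2 start in 3 of 4 LPS libraries and in 3 of 3 unstimulated libraries, counting a region within 1 kb of the start position. With LPS the narrowest regions were 190, 280 and 420 bp wide in letters A, B and C, and LPS D listed none in the window. Without LPS they were 130, 160 and 170 bp in letters A, C and D. The widths of the LPS libraries that listed the site were thus all above those of the unstimulated ones. They averaged 297 ± 116 bp with LPS and 153 ± 20.8 bp without (SD, n = 3 each, without LPS D). Such a separation towards wider regions was seen for 5 (6.67%) of the 75 p50 regions listed in all 3 unstimulated libraries and in LPS A, B and C. The opposite one was seen for 1 of them (1.33%). Unstimulated A also listed a 710 bp region around its 130 bp one, and no other p50 list nested regions here. Counted as bases covered in the window, p50 had 190, 280, 420 and 0 bp in LPS A, B, C and D, and 710, 160 and 170 bp in unstimulated A, C and D. The groups overlap, with means of 222.5 ± 176 bp (SD, n = 4) and 347 ± 315 bp (SD, n = 3), and the sign of the difference rests on unstimulated A. The difference, LPS minus unstimulated, was -124 bp with that library and 57.5 bp without it. In 2 kb tiles laid over the genome, p50 was listed in at least 3 of 4 LPS lists in 0.0419% of tiles and in all 3 unstimulated lists in 0.00704%.

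**Figure D1:**
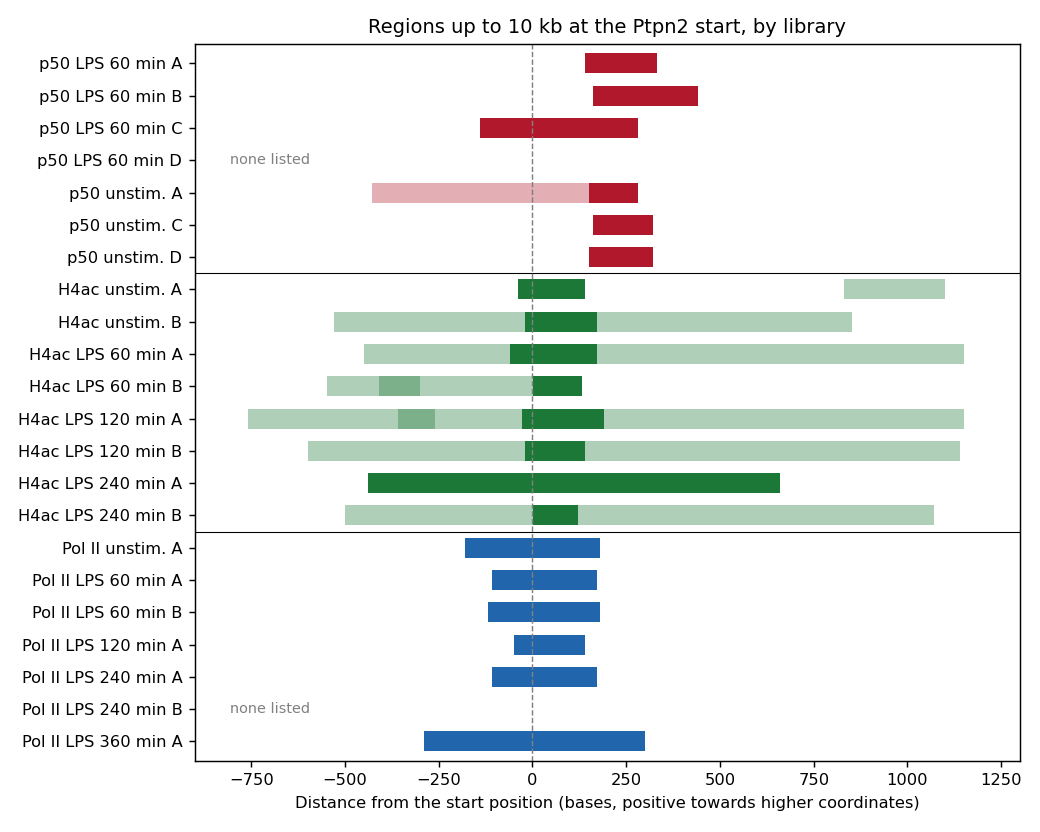
Regions up to 10 kb wide near the Ptpn2 start, drawn as bars by distance in bases from the start position, with 1 row per library (p50 red, H4ac green, Pol II blue). Full colour marks the best-scored region of a list and pale colour its other regions, and the p50 bars end 280 to 440 bases to the right of the start position. In p50 LPS D and Pol II 240 min B no region is drawn.

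The 6 best-scored p50 regions shared 120 bp (chr18:67884161-67884280), from 161 to 280 bases on the higher side of the start position. As that position is approximate, the side of the true start on which these bases lie is unknown. The best-scored H4ac regions of the 8 lists shared another 120 bp (chr18:67884001-67884120), and the Pol II regions of 6 lists shared 190 bp (chr18:67883951-67884140). The bases shared by p50 lay outside those shared by H4ac and those shared by Pol II. The H4ac and Pol II stretches are no more than the narrowest best-scored regions, of H4ac 240 min B and Pol II 120 min A. Library by library, 5 of 6 Pol II regions reached into the p50 bases, 1 of them across all 120 bp and the others by 10 or 20 bp. Of the 8 best-scored H4ac regions, 1 covered the p50 bases, 3 reached into them by 10 to 30 bp and 4 did not reach them. Wider H4ac regions, up to 100 kb, covered all of the p50 bases in each of these lists except unstimulated A. Coordinates in the lists move in steps of 10 bp.

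The place of the p50 region by score was read within each list, of 1118 to 1378 regions in LPS A, B and C and of 354 to 447 in the unstimulated libraries. The share of the list scored at or above it was 29.0%, 70.1% and 50.0% in LPS A, B and C. In unstimulated A, C and D the share was 16.7%, 12.1% and 30.2%. The ranges overlap, since LPS A lay just below unstimulated D, and the means were 49.7 ± 20.6% and 19.7 ± 9.42% (SD, n = 3 each, without LPS D). Letters A and C, whose libraries share a date in the titles in both conditions, each had the higher share in the longer LPS list. Among 138 p50 regions listed by these 4 libraries, 13.0% had a higher share in the LPS list in both letters and 62.3% a lower share in both. A mean share higher over the LPS lists, as here, was seen for 22.7% of the 75 regions named above. With list lengths this unequal, the shares cannot tell whether the site changed.

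**Figure D2:**
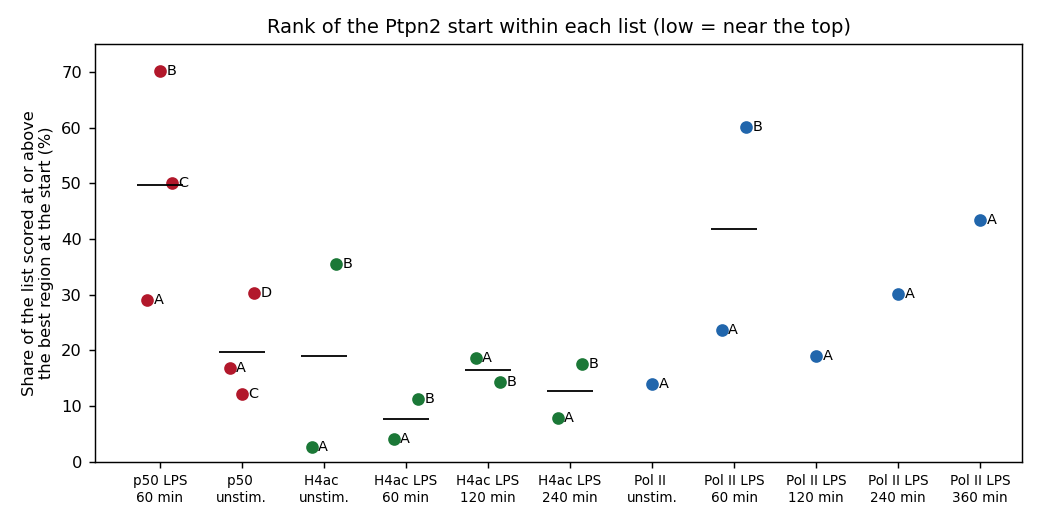
Share of each list scored at or above its best region up to 10 kb at the Ptpn2 start, in percent, where low values are near the top. Points are libraries marked with their letter and lines are means of groups with more than 1 point, and p50 points lie at 29.0% to 70.1% with LPS and at 12.1% to 30.2% without.

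LPS D, the p50 library without the site, had 324 regions, against 1118 to 1378 in LPS A, B and C and 354 to 447 in the unstimulated lists. Of the 75 p50 regions that the other 6 libraries all listed, 41.3% were likewise not in LPS D. The 75 make up 3.03% of merged p50 regions, and those missing from LPS D 1.25%. Unstimulated D, of the same date and with 354 regions, did list the site. The part of list length in the absence was not tested.

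Regions shared by all 3 unstimulated p50 lists were few, and the Ptpn2 start was 1 of 84 among 2478 merged p50 regions, or 3.39%. Merged regions are regions up to 10 kb joined across the p50 lists where they overlapped. Ordered by the mean of the 3 shares, from the top of the lists, the Ptpn2 start was at place 45 of the 84. Of the 84, 94.0% were also listed in LPS A, 92.9% in LPS B, 95.2% in LPS C and 59.5% in LPS D. Of all merged p50 regions, 0.646% were held by at least 2 unstimulated lists and by no LPS list, and 9.60% by no unstimulated list but 3 or more LPS lists. The Ptpn2 start was in neither class.

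The Ptpn2 start also had H4ac in all 8 lists and Pol II in 6 of 7, which was part of the reason for its choice. H4ac was in all 8 lists at 47.6% of the 84 regions, or 29.8% counting H4ac regions up to 10 kb alone, and Pol II in at least 6 of 7 lists at 15.5%. Both held for 11 of the 84, or 13.1%, the Ptpn2 start included. Of the 2 kb tiles, 1.35% had H4ac in all 8 lists and 0.780% Pol II in at least 6. These conditions and resting p50 in 3 lists met in 12 of 1320315 tiles, or 0.000909%.

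**Figure D3:**
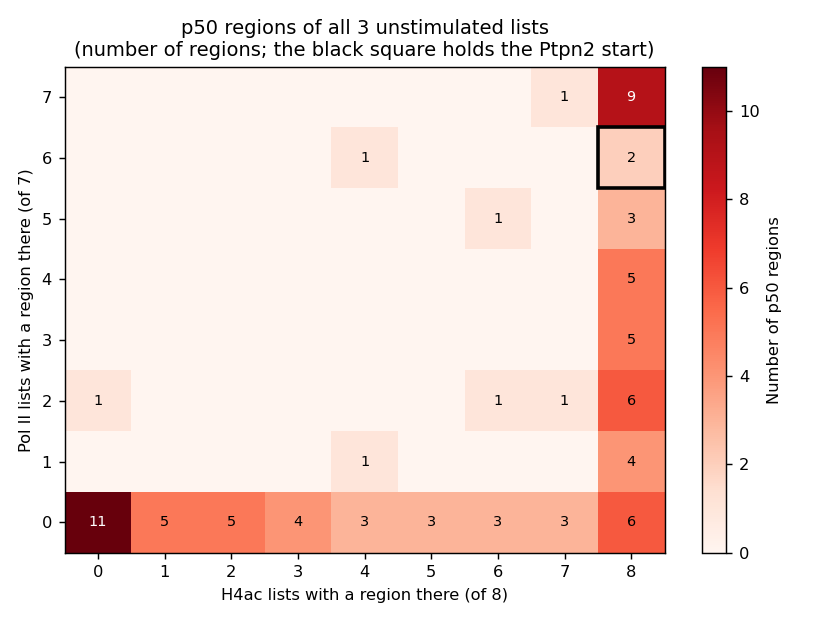
The 84 p50 regions held by all 3 unstimulated lists, placed by the number of H4ac lists (of 8, horizontal) and of Pol II lists (of 7, vertical) with a region up to 100 kb there, where numbers and colour count p50 regions. The square with the Ptpn2 start, at 8 H4ac and 6 Pol II lists, holds 2 regions, and 11 regions lie where no H4ac or Pol II list has one.

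H4ac was listed at the Ptpn2 start in all 8 libraries, at rest and at each time of LPS. Without LPS, the best-scored region was 180 bp in A and 190 bp in B. At 60 min it was 230 and 130 bp, at 120 min 220 and 160 bp, and at 240 min 1100 and 120 bp, in A and B. All but 240 min A thus marked a stretch of at most 230 bp, and in every list it covered chr18:67884001-67884120. A region held by all 8 H4ac lists is common, at 23.4% of 24406 merged H4ac regions. The shares of the list scored at or above it were 2.58% and 35.5% at rest, 4.07% and 11.2% at 60 min, 18.6% and 14.2% at 120 min and 7.93% and 17.6% at 240 min, in A and B. The share was lower in letter A than in letter B at 0, 60 and 240 min, and no LPS value lay outside the range of the unstimulated pair.

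In 7 of 8 libraries the best-scored region at the start lay inside a wider H4ac region. In unstimulated B the 190 bp region lay inside one of 1380 bp, and in unstimulated A it lay in none, with a separate 270 bp region on the higher side. At 60 min the regions around the start were 1600 and 680 bp, and at 120 min 1910 and 1740 bp, in A and B. At 240 min letter A had no region up to 10 kb but the 1100 bp one, and letter B had one of 1570 bp. The widest region up to 10 kb at the start thus spanned 680 to 1910 bp in the 6 LPS libraries and 270 and 1380 bp in the unstimulated ones, and the ranges overlap.

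Regions of 10 to 100 kb reached the start in both libraries at 60 and at 240 min and in none at 0 and 120 min. This depends on the 100 kb limit, since unstimulated B had a region of 136.58 kb over the start. At 60 min they were 32.8 and 29.6 kb wide and ran from the start through the nearer part of the gene body, and every other H4ac region of those libraries in the window lay inside them. At 240 min they were 12.5 and 12.7 kb wide, in A at chr18:67872751-67885240 and in B at chr18:67872731-67885420. At 120 min the regions of 11.8 and 21.7 kb lay wholly on the gene-body side and ended before the start. Among 5710 merged H4ac regions held by all 8 lists, 4.31% were reached by such a region in both 60 min lists and neither unstimulated list, 4.50% at 120 min and 5.03% at 240 min. The converse, in both unstimulated lists and neither LPS list, held for 4.92% at 60 min, 6.18% at 120 min and 5.48% at 240 min. The pattern with 60 and 240 min but not 0 and 120 min was met by 11 of them, or 0.193%, under the same limit.

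**Figure D4:**
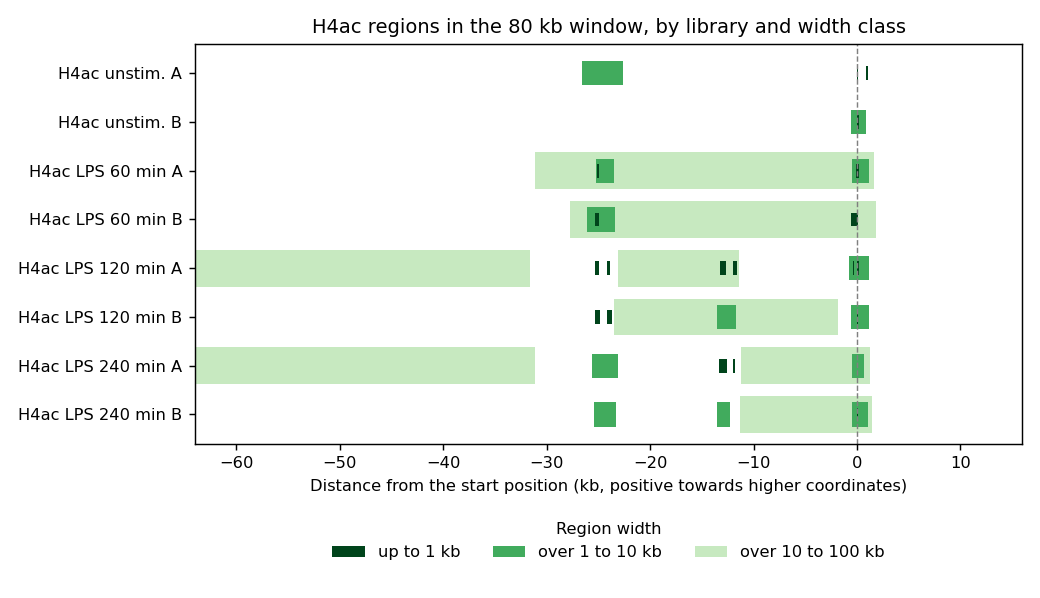
H4ac regions up to 100 kb in the 80 kb window, with 1 row per library and the horizontal axis in kb from the start position, the gene body to the left. Bars are coloured by region width, and the pale bars of over 10 to 100 kb appear in the 6 LPS libraries and not in the unstimulated ones.

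Counted as bases covered in the window by regions up to 100 kb, each LPS library exceeded both unstimulated libraries. The unstimulated libraries had 4450 bp in A and 1380 bp in B. At 60 min the values were 32760 and 29610 bp, at 120 min 46721 and 24360 bp, and at 240 min 48911 and 16020 bp. The groups do not overlap, and the same held for 5.72% of 5650 tiles of 80 kb with H4ac in all 8 lists, against 8.16% with fewer bases in each LPS library. Among all 11339 tiles with H4ac in any list the shares were 4.15% and 13.1%. The H4ac lists held 15256 to 27235 regions with LPS, against 28522 and 21058 without, and the part of list length was not tested. The 240 min A library carries a date of its own, while letter B has 1 date at all 4 times. The means were 2915 ± 2171 bp at rest, 31185 ± 2227 bp at 60 min, 35541 ± 15812 bp at 120 min and 32466 ± 23257 bp at 240 min (SD, n = 2 each). The separation rests on the width limit. With regions up to 200 kb, a limit chosen after seeing the data, the 136.58 kb region counts and unstimulated B covered 48.88 kb. The widest region inside the limit was 87.79 kb, in 240 min A, most of it below the window.

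**Figure D5:**
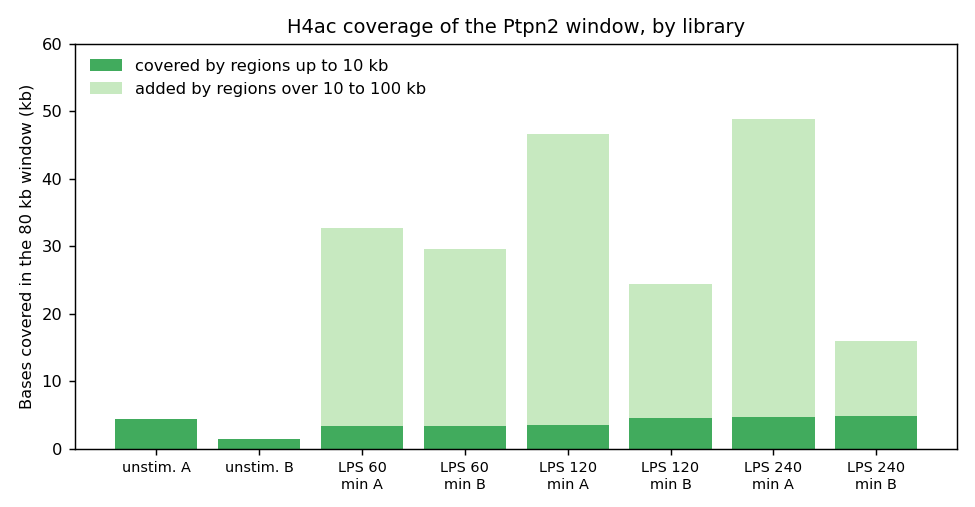
Bases of the 80 kb Ptpn2 window covered by H4ac regions in each library, in kb, as stacked bars for regions up to 10 kb (dark) and the bases added by regions over 10 to 100 kb (pale). The dark parts span 3400 to 4900 bp with LPS and 1380 and 4450 bp without, and the pale parts are present at 60, 120 and 240 min and absent in the unstimulated libraries.

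H4ac was also listed at a pair of narrow sites on the gene-body side, 11.6 to 13.6 kb and 22.6 to 26.6 kb from the start position. Whether they are exonic or intronic was not analysed here. The nearer site (chr18:67870441-67872440) had a region up to 10 kb in both libraries at 120 min and both at 240 min, and in none at 0 and 60 min. Its best regions were 0.61 and 1.88 kb wide at 120 min and 0.83 and 1.17 kb at 240 min, with shares of 7.24% and 37.0%, and of 7.52% and 19.3%. At 60 min the site lay inside the broad regions of both libraries. In unstimulated B it lay inside the region of 136.58 kb, so its absence there holds only under the width limit. Of merged H4ac regions, 2.70% were in both 60 min lists and neither unstimulated list, 3.85% at 120 min and 5.57% at 240 min. The converse held for 12.8%, 15.8% and 11.1%. The pattern of this site over the 4 times was shown by 1.18%. Of the 289 regions with that pattern, 10.0% lay inside a region of 10 to 100 kb in both 60 min lists.

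The farther site (chr18:67857381-67861380) had a region up to 10 kb in all 6 LPS lists and in unstimulated A, a pattern of 1.66% of merged H4ac regions. In unstimulated B the region of 136.58 kb covered this site as well, so its absence there holds only under the width limit. Unstimulated A had a 4000 bp region with 91.0% of the list scored at or above it, close to the end of the list. At 60 min the shares of the best region were 52.8% and 52.6%, at 120 min 6.24% and 15.5%, and at 240 min 25.1% and 16.9%, in A and B. The shares were thus below that of unstimulated A in the 6 LPS lists, which are also shorter than that list, and lower at 120 and 240 min than at 60 min. At 120 min the site was split into a pair of regions of 280 to 480 bp, and at 240 min it was a region of 2540 and 2160 bp. Beyond it, 120 min A and 240 min A each listed a broad region towards the lower edge of the window, of 53.3 and 87.8 kb. In letter B the regions there were wider than 100 kb, at 499.1 kb in 120 min and 227.14 kb in 240 min.

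Nesting was found in H4ac, apart from the p50 pair in unstimulated A. Of its 42 regions in the window, 19 lay inside another listed region of the same library and 6 inside more than 1. The scale number that comes with each region ran from 9 to 28 for H4ac, from 13 to 17 for p50 and from 12 to 16 for Pol II. Of the 42, 21 were up to 1 kb wide, 13 over 1 to 10 kb and 8 over 10 kb, while every p50 and Pol II region was under 1 kb.

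Pol II was listed at the Ptpn2 start at every time, in 6 of 7 libraries, with 1 region each and no nesting up to 100 kb. The region was 360 bp wide in unstimulated A, 280 and 300 bp at 60 min in A and B, 190 bp at 120 min, 280 bp at 240 min in A and 590 bp at 360 min. Its centre lay 0 to 45 bases from the start position on the higher side. Pol II 240 min B, the longest Pol II list with 7728 regions, had none up to 100 kb, and its region of 234.83 kb covered the window. Of 312 merged Pol II regions held by the other 6 lists, 6.09% were likewise missing from 240 min B. These are 0.209% of all 9092 merged Pol II regions, and 3.22% were in all 7 lists. Pol II 60 min B, of the same date, did list the start.

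Within letter A the Pol II region stood at 13.9% of the list at rest, 23.6% at 60 min, 19.0% at 120 min, 30.1% at 240 min and 43.5% at 360 min, as the share scored at or above it. In letter B it stood at 60.2% at 60 min. The share was higher at the 4 LPS times of letter A than in the unstimulated library, and the 60 min libraries of A and B lay further apart than any of the letter A values did from each other. The unstimulated library, 240 min A and the other letter A libraries carry 3 different dates, so for those contrasts time and date cannot be told apart. Within letter A the lists ran from 2948 regions at 360 min to 7436 at rest, so these shares cannot tell whether the site changed either. Apart from the region at the start, no Pol II region up to 100 kb lay in the window, and regions wider than 100 kb covered the start in all 7 libraries. The narrowest were 158.32 and 139.71 kb in 60 min A and B, and 138.44 and 234.83 kb in 240 min A and B. In the other letter A libraries they were 938.11 kb at rest, 10489.89 kb at 120 min and 10492.21 kb at 360 min.

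No p65 region up to 100 kb accompanied p50 at the start. None of 5 p65 and none of 3 ATF3 lists had a region up to 100 kb within 1 kb of the Ptpn2 start. The p65 lists held 255 to 2285 regions and the ATF3 lists 1257 to 3954. How often p65 or ATF3 is absent at other p50 regions was not counted, so the absence cannot be called particular to this locus. None of 5 H3K27me3 lists had a region up to 100 kb in the window. Windows of this size without H3K27me3 are common, at 86.4% of 80 kb tiles. A narrow site on the higher side, 4.54 to 4.73 kb from the start position (chr18:67888541-67888730), was in p65 60 min A, with 190 bp and a share of 25.4%, and in ATF3 240 min B, with 140 bp and place 515 of 1257. The p50, H4ac and Pol II lists had no region up to 10 kb there. The p65 and the ATF3 library carry the same date. Of the 2257 regions up to 10 kb in p65 60 min A, 17.0% overlapped one in ATF3 240 min B, and of the 1237 in ATF3 240 min B, 29.6% overlapped one in p65 60 min A. Of those 1237, 10.0% were in p65 60 min A and in no other p65 or ATF3 list. An 80 kb tile with p65 or ATF3 in at least 2 of the 8 lists made up 7.84% of tiles.

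Regions wider than 100 kb were listed over the window 27 times in 20 libraries and are not counted above. H4ac had 10 of them, Pol II 10 and ATF3 1. For p50 there was 1, of 9233.36 kb in LPS A. There were also 2 p65 regions of 2502.45 and 2557.18 kb, in the 60 and 120 min libraries of letter X, and H3K27me3 regions of 32487.12 kb at rest, 2176.45 kb at 120 min and 2251.96 kb at 240 min. Each of these p50, p65 and H3K27me3 regions spans far more than the Ptpn2 gene.

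Over all 35 lists, the Ptpn2 start was compared with every other merged p50 region, counting the lists whose state (listed or not within 1 kb, regions up to 100 kb) was the same. The most similar of 2477 was chr7:20407871-20409820, the same in 34 lists and different in Pol II 240 min B. Another 6 regions were the same in 33 lists, of which the first 4 by position were chr7:20214721-20215080, chr7:20401571-20403000, chr7:51501351-51501760 and chr11:97520081-97521590. Of these 4, each differed in p50 unstimulated D and in 1 Pol II list. States within a target share antibody and often date, so the number is a description.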

How the data were processed

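The gene, its window and the settings were chosen with earlier results of these data known. Each of the 35 ChIP-seq libraries came with 1 list without a header line, holding a position, a scale number and a score for each region. The score is the authors' own as deposited. Its formula, the aligner, the region caller and its thresholds were not given in the sources used here. Build mm9 is named in the submitters' processing notes. Targets, times and letters were taken from the labels. Regions up to 100 kb overlapping the window were kept, with 1-based positions, and a list held the start if such a region came within 1 kb of it. Merged regions join regions up to 10 kb of 1 target that overlap by at least 1 bp. Ranks use every region of a list, and covered bases are the union of regions inside the window. Percentages over tiles or merged regions describe the lists, and no significance test of a difference between groups was run. The 5 loci named as most similar have the most lists in the same state as the Ptpn2 start, with ties ordered by chromosome and position. Python 3.11.15, pandas 2.3.3, numpy 2.4.6 and matplotlib 3.10.9 were used, and the region functions were tested on simulated lists. Alternatives were other width limits, other distances from the start, the better-scored 50% of each list, each library left out and differences within letters. No mm9 annotation was used here, so exons, macrophage marker genes and the other JAK-STAT genes were not analysed here, and no sequence is printed.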

Additional observations from a re-analysis of the deposited data

Results flagged for a closer look

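LPS D had 0 p50 regions at the Ptpn2 start and 0 in the window, while LPS A, B and C had 1 each, so LPS D stood far from the other libraries of its group by both counts. The check for a lone extreme library was run on 5 quantities, and both counts hold the same values here. With 1 count of 0 and the others equal, it marks the library in any case, so no rate of chance marks applies. With counts of 0 and 1 it says no more than that 1 library differed from the rest.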

How the results depend on the processing

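Results that answer a comparison were recomputed under each alternative. In 79 of these recomputations a difference stayed within 1 SD between replicates of its value, or a count within 1.5 times. In 20 it moved further, and in 1 it changed sign. Many of the 79 could not have come out otherwise. Every p50, Pol II, p65 and ATF3 region counted in the window was under 1 kb, so the narrower width limits changed nothing for them. For H4ac and Pol II, leaving 1 of 2 libraries out cannot shift a difference by more than the SD used. The 79 are therefore no measure of stability. p50 was in 3 of 4 LPS lists and 3 unstimulated lists. Within 100 bases of the start position, itself approximate, these were 1 and 1. With at least 50% of the surrounding 2 kb covered they were 0 and 0, which the narrow regions cannot reach. In the better-scored 50% of each list p50 was left in 1 LPS list and in all 3 unstimulated lists. LPS C fell just outside the cut, at place 627 of 1253. With 50% of the 2 kb covered, H4ac was left in 1 unstimulated list, and Pol II in 0 LPS and 0 unstimulated lists. With regions of every width, 3 p65, 2 ATF3 and 3 H3K27me3 lists had a region overlapping the window, against 1, 1 and 0 with regions up to 100 kb. The difference in the length covered by H4ac (LPS minus unstimulated) was 28.3 kb at 60 min, 32.6 kb at 120 min and 29.6 kb at 240 min. With regions up to 10 kb it was 0.500, 1.155 and 1.88 kb at these times, with regions up to 1 kb 0.425, 1.225 and 0.260 kb, and with regions up to 200 kb, chosen after seeing the data, 4.52, 8.88 and 5.80 kb. Leaving out 1 library gave 26.7 to 29.8 kb, 21.4 to 43.8 kb and 13.1 to 46.0 kb, the lowest at 120 and 240 min without letter A of that time. For p50 the difference of -124 bp ranged from -217.5 bp without unstimulated C to 57.5 bp without unstimulated A, and was -50.0 bp without LPS D. For Pol II the difference of -220.0 bp at 240 min was -360.0 bp without A and -80.0 bp without B. With the letter as a replicate block the p50 difference was -143 bp (3 letters). That is also the value without LPS B, a letter with no unstimulated library. Every H4ac group holds letters A and B alone, so the block could not change the H4ac differences, such as 28.3 kb at 60 min. The p50 libraries of 1 letter share a date between conditions, but A and C also share theirs, and the labels do not say that a letter pairs libraries. Depth is unknown, so whether an unlisted region reflects few reads was not tested.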
